A study of Arabidopsis thaliana with 3 samples.

Results

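Histone H3 is a core protein of the nucleosome, around which nuclear DNA is wrapped, and Arabidopsis encodes it in several variants. The 10 genes described here are those for H3.1 (HTR1, HTR2, HTR3, HTR9 and HTR13), for H3.3 (HTR4, HTR5 and HTR8), the sperm variant HTR10 and the centromeric variant CENH3, encoded by HTR12. They were taken from a list of loci whose rule uses no measured value, and all 10 are among the 27374 genes of the deposited files. H3.1 is placed on DNA mainly during replication, by the chaperone CAF-1, and its genes are known for transcription in S phase of dividing cells. H3.3 replaces it outside replication, through chaperones that include HIRA and ATRX, and is enriched over transcribed genes. CENH3 takes the place of the other variants in centromeric nucleosomes, on which the kinetochore is built.

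The RNA came from whole seedlings of wild-type Col-0, the reference accession, aged 9 days, grown on MS plates at 23 °C in 16 h of light and 8 h of darkness. There is 1 group of 3 libraries, numbered as replicates 1 to 3 in the labels, and no mutant or treated sample was analysed here. Ribosomal RNA had been removed from total RNA and the libraries kept the strand. Nothing in the labels tells separate cultures from repeat libraries of 1 culture, and each title ends in an unexplained (2), so SDs and p-values measure the spread between these libraries, which may be technical. Values are FPKM (fragments scaled for transcript length and sequencing depth), summed over the transcripts of a locus, so they can be compared between genes per length. The 5 seedling markers checked (RBCS1A and LHCB1.1 of photosynthesis, PYK10 of root, PDF1 of epidermis and SUC2 of phloem) lay between 68.2 FPKM (SUC2) and 6896 FPKM (RBCS1A). Depth is not stated. From the spacing of low values it was estimated at 20000000, 18800000 and 20700000 fragments in libraries 1, 2 and 3. That estimate is rough, because only 41.3%, 39.97% and 45.4% of the low values fell within 0.05 of a whole number of fragments. A single setting would give 10% by chance, but the depths were chosen for the highest share, so that is no fair comparison. No count test was run.

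The 5 H3.1 genes encode identical proteins and so do the 3 H3.3 genes. In the RefSeq annotation of TAIR10.1 each of the 8 has a coding sequence of 411 bases. Every H3.1 gene differed from every H3.3 gene in 4 residues, at positions 31, 41, 87 and 90, counted from 1 at the residue after the starting methionine. The stretches around these positions are shown because they set the variants apart. They are coding-strand DNA, 5′ to 3′, and capitals mark the codons of the changed residues. Codons 27 to 45 of the most abundant H3.1 gene and of the H3.3 genes read as follows, on the minus strand of chromosome 5 (chr5:26120372-26120428) for HTR1, of chromosome 4 for HTR5 (chr4:18558012-18558068) and HTR4 (chr4:18556198-18556254), and of chromosome 5 for HTR8 (chr5:3472954-3473010).
HTR1: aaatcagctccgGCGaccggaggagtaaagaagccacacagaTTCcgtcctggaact
HTR5: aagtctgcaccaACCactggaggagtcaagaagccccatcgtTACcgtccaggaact
HTR4: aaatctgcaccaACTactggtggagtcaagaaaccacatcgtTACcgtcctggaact
HTR8: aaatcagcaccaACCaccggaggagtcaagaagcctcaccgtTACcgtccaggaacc
Codons 84 to 93 hold the other changed residues, at chr5:26120228-26120257 for HTR1, chr4:18557668-18557697 for HTR5, chr4:18555969-18555998 for HTR4 and chr5:3472720-3472749 for HTR8.
HTR1: ttccagagcAGCgccgtcGCAgcacttcag
HTR5: ttccagagcCATgctgtgCTTgcactccag
HTR4: ttccagagcCATgctgtcTTAgctctccag
HTR8: tttcagagtCACgcggtgTTAgctcttcaa
Around the changed codons the letters also differ between genes at positions that leave the protein as it is. Coding identity was 80.3% to 89.5% over the 10 H3.1 pairs, 78.6% to 88.8% over the 3 H3.3 pairs and 74.0% to 80.3% over the 15 pairs across variants. The longest identical run between an H3.1 and an H3.3 coding sequence was 26 bases.

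The gene structures differ between the variants in the same annotation. All 5 H3.1 genes have 1 exon. The first transcript forms of HTR4, HTR5 and HTR8 have 4, 5 and 3 exons. HTR10 has 4 exons, and HTR12 has 10 in its first form. Of words of 50 bases within the exons, 10 of HTR3 and 10 of HTR9, 1.28% and 1.36% of theirs, had an exact second copy in the genome, each in the other gene. None of the other 8 genes had such a word, and no word of 100 bases of any member had a second copy. Paralogs can still share reads that align with mismatches, so FPKM within the family keeps some uncertainty. HTR3 shares 328 bases at its 5′ side with AT3G27380 on the same strand, and reads from this part cannot be assigned to 1 gene with certainty.

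H3.3 genes gave most of the H3 RNA of the seedlings. Summed over the 3 H3.3 genes, the level was 796, 743 and 786 FPKM in libraries 1, 2 and 3. Summed over the 5 H3.1 genes it was 176, 173 and 166 FPKM. Each library therefore held more RNA of H3.3 than of H3.1, by a ratio of 4.52, 4.30 and 4.72, with a mean of 4.51 ± 0.213 (SD, n = 3). H3.3 genes contributed 81.7% ± 0.714 of the summed FPKM of the 10 members, H3.1 genes 18.1% ± 0.697 and CENH3 0.202% ± 0.0166. In RNA of whole seedlings, fewer cells that express a gene and less RNA of it per cell cannot be told apart.

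HTR5 (AT4G40040; TAIR10.1 chromosome 4, 18557149 to 18558945, minus strand) was the most abundant member. It had 408, 376 and 394 FPKM in libraries 1, 2 and 3, a mean of 392 ± 16.2 (SD, n = 3), and ranked at percentile 99.4 of the 26693 nuclear genes that code for protein. HTR4 (AT4G40030; chromosome 4, 18555532 to 18557106, minus strand) had 280, 271 and 279 FPKM, a mean of 276 ± 4.95. The genes lie next to each other in the same orientation, 42 bases apart, with HTR5 upstream. HTR8 (AT5G10980; chromosome 5, 3472405 to 3473570, minus strand) had 108, 96.4 and 113 FPKM, a mean of 106 ± 8.46. The ranges of these H3.3 genes did not overlap, and the order HTR5, HTR4, HTR8 was the same in 3 of 3 libraries. HTR5 gave 50.6% ± 0.575, HTR4 35.7% ± 0.679 and HTR8 13.7% ± 0.689 of the H3.3 sum.

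The H3.1 genes spanned a wide range among themselves. HTR1 (AT5G65360; chromosome 5, 26119859 to 26120581, minus strand) had 58.6, 58.6 and 53.3 FPKM, a mean of 56.8 ± 3.06 (SD, n = 3). HTR2 (AT1G09200; chromosome 1, 2971571 to 2972334, minus strand) had 50.4, 46.1 and 46.8 FPKM, a mean of 47.8 ± 2.33. HTR9 (AT5G10400; chromosome 5, 3270172 to 3270957, minus strand) had 35.6, 34.8 and 39.1 FPKM, a mean of 36.5 ± 2.26. These genes gave 82.2% ± 1.48 of the H3.1 sum together, and their ranges did not overlap. HTR13 (AT5G10390; chromosome 5, 3268847 to 3269594, minus strand) had 17.4, 18.7 and 14.3 FPKM, a mean of 16.8 ± 2.26. HTR3 (AT3G27360; chromosome 3, 10129105 to 10129937, minus strand) was the lowest H3.1 gene, with 14.2, 14.6 and 12.9 FPKM and a mean of 13.9 ± 0.917. HTR13 and HTR3 were neighbours in the order of levels whose ranges overlapped, although HTR13 was higher within each of the 3 libraries. Every other neighbouring pair in the order of the 9 detected members had ranges that did not overlap. Ranges between libraries were narrow in general, with a median of 0.164 in log2(FPKM + 1) over nuclear genes whose mean reached 1 FPKM. Non-overlap was not counted for other genes, so it says little about the members in particular. The ratio of HTR1 to HTR3 was 4.09 ± 0.0701, between genes that encode the same protein.

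**Figure D1:**
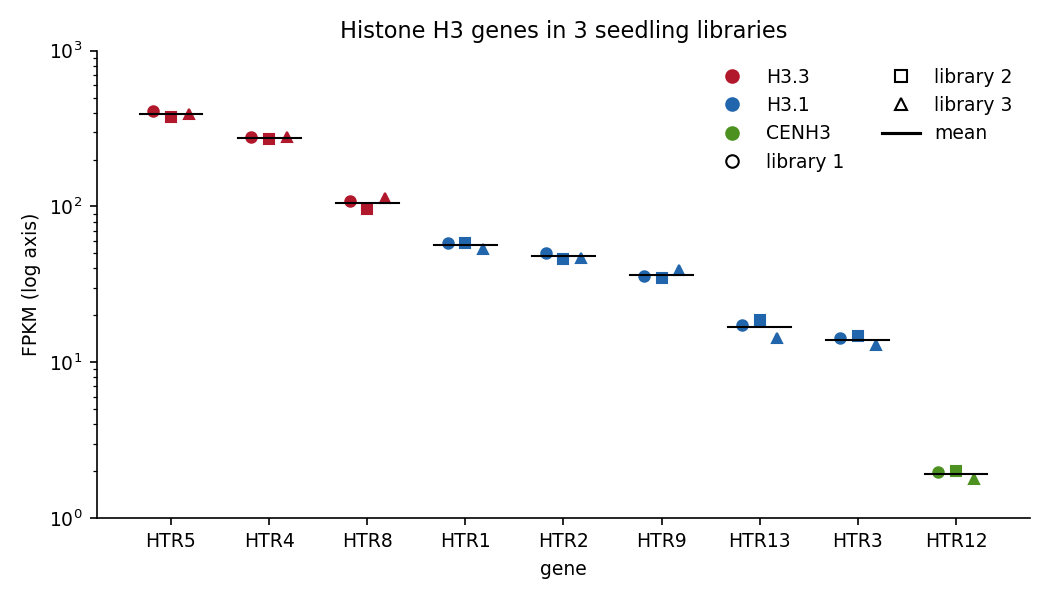
FPKM (log axis) of the 9 members with values above 0, ordered by mean; colours give the variant, symbols the library and bars the mean over 3 libraries. The H3.3 genes lie from 96.4 to 408 FPKM, the H3.1 genes from 12.9 to 58.6, and HTR12 from 1.77 to 2.01.

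CENH3 RNA was scarce and that of the sperm variant was listed at 0. HTR12 (AT1G01370; chromosome 1, 143489 to 146479, plus strand) had 1.96, 2.01 and 1.77 FPKM, a mean of 1.91 ± 0.125 (SD, n = 3) and a percentile rank of 40.1. These levels correspond to roughly 46, 45 and 43 estimated fragments, for which counting error alone is up to 15.2%, against 1.25% for HTR5. The H3.1 sum exceeded HTR12 by 90.1 ± 3.93 times. HTR10 (AT1G19890, MGH3 in the gene table; chromosome 1, 6904963 to 6906028, plus strand), known from male gametes, was listed at 0 in all 3 libraries. A value of 0 can be a failed estimate in such files. Markers of sperm and pollen were near 0 as well: 1 of 6 reached 1 FPKM in every library, ANX1, a receptor kinase of pollen tubes, at 2.20 ± 0.213. DUO1, the male germline regulator, had a value above 0, of 0.0691 FPKM, in library 3 alone, and DAZ1 and VGD1 were listed at 0 throughout. GEX2 and GCS1 (HAP2 in the table), gamete membrane proteins, had 0.718 ± 0.159 and 0.0486 ± 0.0245 FPKM.

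Differences within libraries were tested with limma on the log2 ratio of every gene to a reference gene, with Benjamini-Hochberg adjustment over the 17867 genes whose mean reached 1 FPKM. On simulated data, with either reference, the fit called more than the nominal share of genes of equal level, which bears on every p-value it gives. All 8 members tested were lower than HTR5, in 3 of 3 libraries each, beside 98.6% of all genes tested. The count itself therefore says little about histones. HTR5 had the highest mean of the members, so the direction was given by the order of levels. In log2(FPKM + 1), the difference from HTR5 was -0.50 for HTR4 (SE 0.044, limma adjusted p = 9.67e-07) and -1.88 for HTR8 (SE 0.047, limma adjusted p = 1.46e-11). For the H3.1 genes it ran from -2.77 (HTR1) to -4.72 (HTR3), and the highest limma adjusted p was 9.51e-13. HTR12 differed by -7.08 (SE 0.087, limma adjusted p = 5.34e-14), and HTR10 was below the filter and not tested.

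Against HTR1, all 4 other H3.1 genes were called lower, beside 89.9% of all genes called lower and 98.2% called different in either direction. That count says little about histones either. HTR1 had the highest mean of the H3.1 genes, so here too the direction was given by the order of levels. HTR2 was nearest, with a difference of -0.25 (SE 0.069, limma adjusted p = 0.00141). The SEs and p-values against either reference hold only the spread between libraries. An error in the FPKM of a gene that repeats in every library is not in them. HTR9 differed by -0.62 (SE 0.074), HTR13 by -1.71 (SE 0.077) and HTR3 by -1.96 (SE 0.077), each lower in every library. The highest limma adjusted p of these was 3.18e-09. With the variances of both genes added, the limma adjusted p for HTR2 was 0.00481, and over all alternatives it ranged from 0.000265 to 0.0367.

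**Figure D2:**
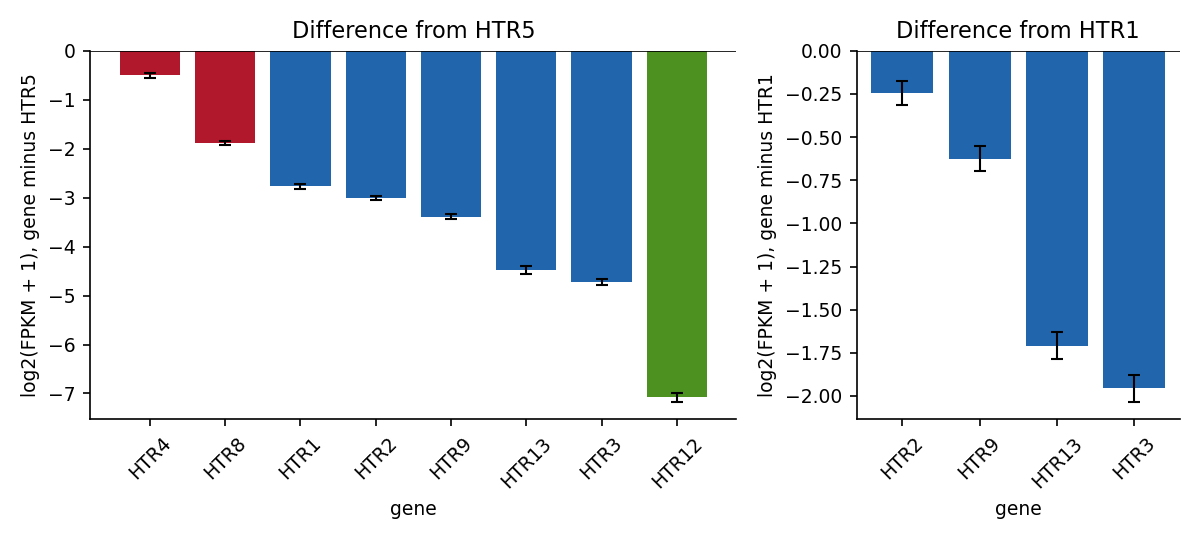
Mean within-library difference in log2(FPKM + 1) of each tested member from HTR5 (left) and of each H3.1 gene from HTR1 (right); error bars are limma SEs over 3 libraries. The H3.1 genes lie from -2.77 to -4.72 below HTR5, and within the H3.1 genes HTR3 lies -1.96 from HTR1.

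The 3 most abundant H3.1 genes shared a sequence upstream of their starts that the other H3.1 genes lacked. Promoters of plant histone genes are known for an octamer, CGCGGATC, and a hexamer, ACGTCA. Both were searched on both strands in the 250 bases upstream of the annotated start of each gene in TAIR10.1. The octamer was found upstream of HTR1, HTR2 and HTR9, the H3.1 genes at 36.5 to 56.8 FPKM. It was not in the windows of HTR13 and HTR3, at 16.8 and 13.9 FPKM. Over all 27443 nuclear protein-coding genes with a full window, 37 (0.135%) held the octamer, and 4 of these were members. These are 5 genes, so the pattern is a description and was not tested. The windows of 150 bases before the start are shown for the H3.1 genes that hold the octamer and, for contrast, for HTR13. They are printed 5′ to 3′ on the minus strand, which is the coding strand, with the octamer in capitals. Their positions are chr5:26120582-26120731 (HTR1), chr1:2972335-2972484 (HTR2), chr5:3270958-3271107 (HTR9) and chr5:3269595-3269744 (HTR13).
HTR1: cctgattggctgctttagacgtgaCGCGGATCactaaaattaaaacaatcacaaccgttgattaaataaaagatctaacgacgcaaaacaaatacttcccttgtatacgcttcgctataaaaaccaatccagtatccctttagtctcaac
HTR2: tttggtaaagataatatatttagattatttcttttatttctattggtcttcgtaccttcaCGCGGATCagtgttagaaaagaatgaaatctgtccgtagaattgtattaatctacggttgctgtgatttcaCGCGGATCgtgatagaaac
HTR9: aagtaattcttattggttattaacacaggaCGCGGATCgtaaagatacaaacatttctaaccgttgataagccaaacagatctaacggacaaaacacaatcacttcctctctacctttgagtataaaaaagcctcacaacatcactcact
HTR13: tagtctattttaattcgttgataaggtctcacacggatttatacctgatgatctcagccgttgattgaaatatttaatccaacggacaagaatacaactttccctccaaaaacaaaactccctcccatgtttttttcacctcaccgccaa
The octamer starts 126 bases before the gene start in HTR1 and 120 in HTR9. HTR2 holds it at 90 and again at 19 bases, each time in the orientation of the gene. Among the H3.3 genes, HTR4 and HTR8 lack it, though at 276 and 106 FPKM they lie above every H3.1 gene. HTR5 holds it in the reverse orientation, from 17 to 10 bases before its start (chr4:18558946-18559095, minus strand). The same match lies in the window of AT4G40042, 151 bases away on the opposite strand, at 5.77 FPKM.
HTR5: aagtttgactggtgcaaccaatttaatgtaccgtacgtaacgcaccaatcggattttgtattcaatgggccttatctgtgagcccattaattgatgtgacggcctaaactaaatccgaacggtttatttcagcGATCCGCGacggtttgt
In windows of 500 bases no further member held the octamer, and 0.248% of all windows did. The hexamer, present in 7.69% of all windows of 250 bases, was found upstream of HTR3, HTR9, HTR8 and HTR10, at 13.9, 36.5 and 106 FPKM and listed at 0, and not upstream of HTR5 or HTR4, the most abundant members. A match shows only that these letters are present, and the window of HTR3 lies within AT3G27380.

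**Figure D3:**
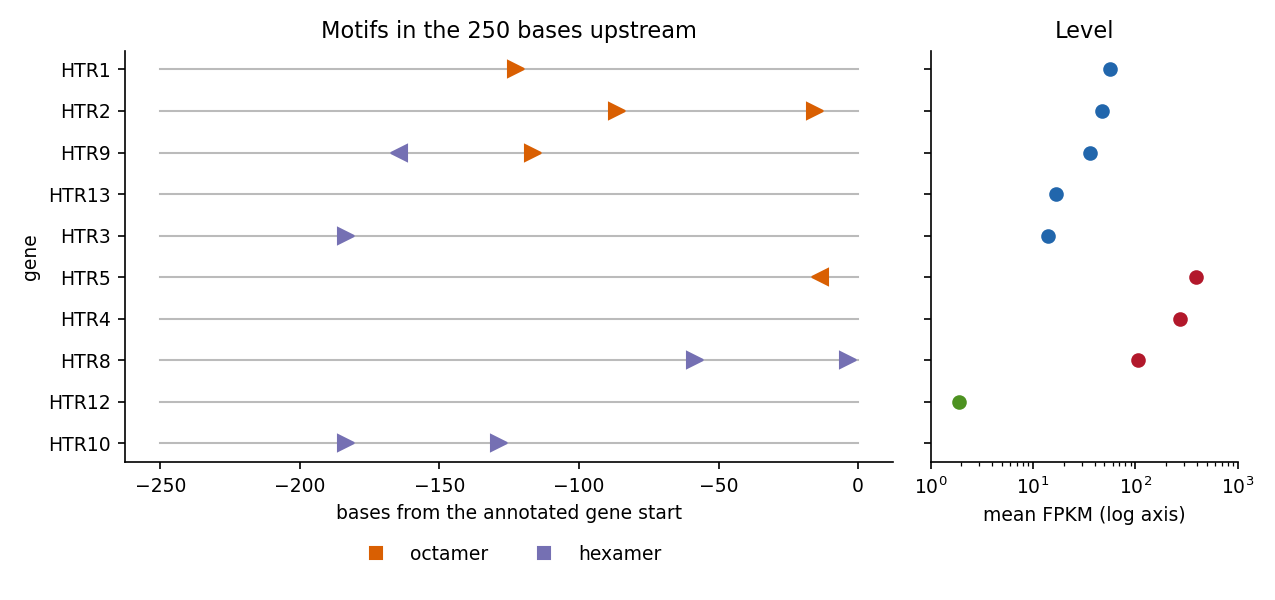
Left, octamer and hexamer matches in the 250 bases before the annotated start of each member (x axis, bases from the start; triangles point right for the orientation of the gene and left for the reverse); right, mean FPKM over 3 libraries (log axis; HTR10, listed at 0, has no point). HTR1, HTR2 and HTR9, with the octamer, lie at 36.5 to 56.8 FPKM, and HTR13 and HTR3, without it, at 16.8 and 13.9. HTR4 and HTR8, H3.3 genes also without it, lie at 276 and 106 FPKM.

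Between its highest and lowest library, none of the 9 detected members differed by more than 1 in log2(FPKM + 1). That count says little, since 0.651% of the 17678 nuclear genes whose mean reached 1 FPKM did. Beside nuclear genes within 1.5-fold of their own level, 6 of the 9 had a range above the median of those genes. These were HTR1, HTR2, HTR3, HTR9, HTR13 and HTR8, and 57.0%, 52.5%, 60.5%, 66.9%, 94.4% and 80.8% of the genes of like level had a smaller range. For HTR5 and HTR12 the shares were 37.8% and 16.4%. HTR4 had the smallest range of a detected member, 0.046, and 3.61% of 249 genes of like level had a smaller range. HTR13 had the largest, 0.37. In library 3, HTR13 was at its lowest and HTR9, its neighbour 577 bases away, at its highest. Their ratio, HTR9 to HTR13, was 2.05, 1.86 and 2.74 in libraries 1, 2 and 3, while their sum was 52.9, 53.5 and 53.3 FPKM. The coefficient of variation was 0.562% for the sum, 6.19% for HTR9 and 13.5% for HTR13. Counting error alone, at the estimated fragments of the lowest library, is 4.13% for the sum, 4.999% for HTR9 and 8.19% for HTR13, so the sum varied by less than counting error. This pattern was noticed in the values and was not tested, nor was sharing of reads between the 2 genes. Their coding sequences are 86.9% identical, within the 80.3% to 89.5% of all H3.1 pairs, and their longest identical run is 23 bases. No word of 25 bases within the exon of HTR9 occurs in HTR13.

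Relative to their own means, 4 of 5 H3.1 genes were above it in library 1, 3 in library 2 and 1 in library 3. All 3 H3.3 genes were above their means in libraries 1 and 3 and below in library 2. Of the 17678 nuclear genes whose mean reached 1 FPKM, 9601, 7092 and 10134 were above their means in libraries 1, 2 and 3. The H3.3 genes thus went the way of most nuclear genes in each library. The median deviations of the H3.1 genes were 0.046, 0.044 and -0.090 in log2(FPKM + 1), and those of the H3.3 genes 0.036, -0.062 and 0.014. Over all nuclear genes with at least 1 FPKM they were 0.0085, -0.021 and 0.015. A median over 5 or 3 genes varies more than one over so many, so their sizes cannot be compared. For the 8 histone H4 genes described below they were 0.079, -0.046 and -0.025. For 9 S phase genes they were -0.027, -0.042 and 0.048, and for 5 mitotic genes -0.015, -0.012 and 0.045.

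HTR5 and HTR4 RNA was assigned almost wholly to 1 transcript form each. Form AT4G40040.1 of HTR5 had 405, 368 and 389 FPKM, or 98.7% ± 0.607 of the gene. Form AT4G40030.1 of HTR4 had 266, 256 and 266 FPKM, or 95.01% ± 0.402. Form AT4G40030.3 had 3.90% ± 0.340, and its RefSeq counterpart is 1031 bases long, against 945 for that of AT4G40030.1. Form AT4G40030.2, whose counterpart has a longer coding sequence of 495 bases, had 1.09% ± 0.0629. The division of HTR12 between its forms was unstable by comparison. AT1G01370.1 took 22.9%, 48.2% and 0.00383% of the gene in libraries 1, 2 and 3, and AT1G01370.2, which has 9 exons in RefSeq against 10, took the rest. The gene's sum varied by 6.53% (coefficient of variation). At the estimated 43 to 46 fragments a library, no share of these forms can be given with confidence. HTR1, HTR2, HTR3, HTR9, HTR13, HTR8 and HTR10 were each listed with 1 form.

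**Figure D4:**
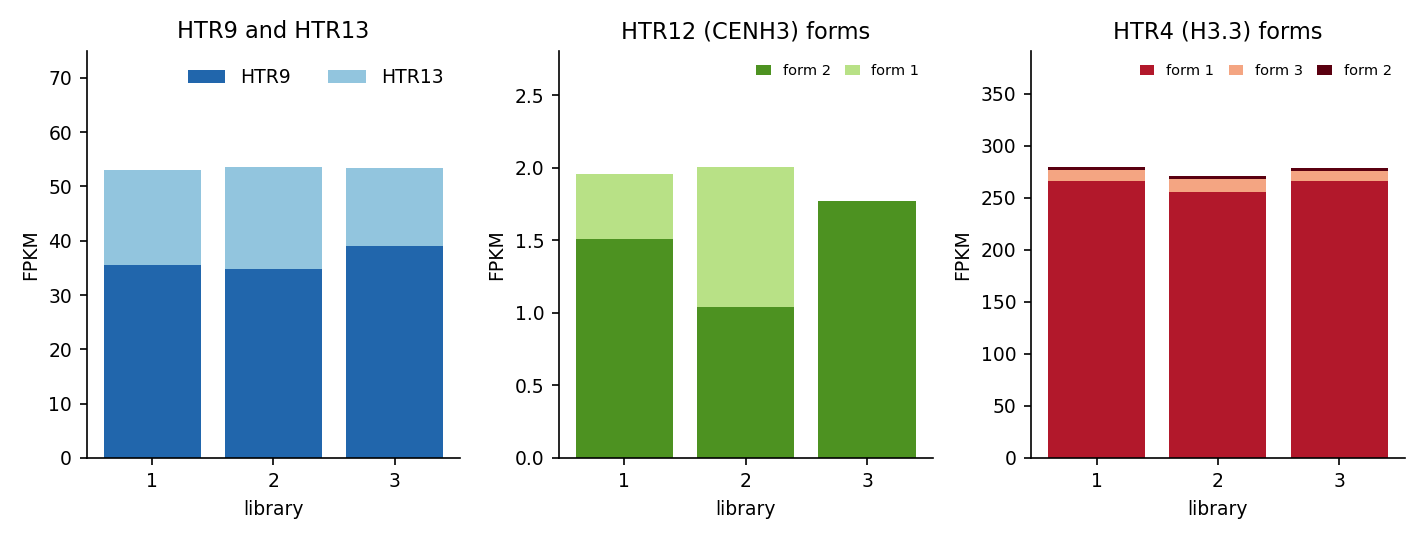
Stacked FPKM by library of HTR9 and HTR13 (left), of the forms of HTR12 (middle) and of the forms of HTR4 (right). The left bars reach 52.9, 53.5 and 53.3 FPKM with a changing split, form 1 of HTR12 goes from 48.2% in library 2 to 0.00383% in library 3, and form 1 of HTR4 keeps a mean of 95.01%.

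Other genes encoding H3-like proteins were low. HTR11 (AT5G65350), 33 bases downstream of HTR1 on the same strand, had 1.20, 0.869 and 0.693 FPKM. The genes entered as HTR6 (AT1G13370) and HTR14 (AT1G75600) had 0.255 ± 0.159 and 0.150 ± 0.00541 FPKM, and the gene entered as HTR15 (AT5G12910) was listed at 0 in all libraries. HTR6 and HTR14 each differ from HTR1 in 9 residues. None of the 4 reached 1 FPKM in every library. The gene entered as HTR7 was not analysed here.

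Histone H4 is the partner of H3 in the nucleosome, and 8 genes for it, all with the same coded protein, were compared. All 8 reached 1 FPKM in each library, with a median of 26.5 FPKM, from AT1G07660 at 16.1 ± 0.260 to AT5G59690 at 83.4 ± 2.73. Their sum was 271, 247 and 255 FPKM. Relative to this sum, that of H3.1 and H3.3 together was 3.68 ± 0.0793 times as high and that of H3.1 alone 0.668 ± 0.0276 times. The H3.1 sum was thus below the H4 sum, and H3.3 carried the excess of H3 RNA, in each library. RNA levels are not protein levels, which were not measured.

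Chaperones of H3 were all detected, with mean levels below that of the lowest H3.1 gene, HTR3, though in library 3 MSI1 was above it. Of CAF-1, which loads H3.1 at replication, MSI1, a subunit it shares with other complexes, had 13.8 ± 0.602 FPKM, FAS1 2.99 ± 0.112 and FAS2 1.78 ± 0.123. Of the H3.3 route, HIRA had 4.71 ± 0.177, its partners UBN1 (AT1G21610) 8.74 ± 0.125, UBN2 (AT1G77310) 1.29 ± 0.179 and CABIN1 (AT4G32820) 7.02 ± 0.318, and the remodeller ATRX 3.54 ± 0.0970. ASF1A (SGA2 in the table) and ASF1B, which hand H3 with H4 to other chaperones, had 8.61 ± 1.43 and 6.06 ± 0.907. The gene entered as NASP (AT4G37210) had 10.6 ± 0.944. All 3 CAF-1 genes, all 5 of the H3.3 route and all 3 general chaperones reached 1 FPKM in each library, beside 63.2% of all nuclear genes. For CENH3, the loading factor KNL2 (AT5G02520) had 1.08 ± 0.177 and the kinetochore protein CENP-C 3.83 ± 0.368. HTR12 lay between these, and its range overlapped neither.

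Genes that act on H3.1 were near CENH3 in level. ATXR5 and ATXR6, methyltransferases with a preference for H3.1, had 2.45 ± 0.128 and 0.934 ± 0.295 FPKM, and TSK, which binds newly made H3.1, 1.02 ± 0.139. Of these 3 genes, only ATXR5 reached 1 FPKM in each library.

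The genes of DNA replication and mitosis were detected in every library, with list medians below that of the H3.1 genes, although TSO2 had a higher mean than HTR9. The 9 S phase genes had a median of 7.82 FPKM, from the DNA polymerase subunit ICU2 at 3.22 ± 0.134 to TSO2, a subunit of ribonucleotide reductase, at 36.9 ± 3.03. The 5 mitotic genes had a median of 5.67 FPKM, from the cyclin CYCB1;1 at 3.12 ± 0.603 to the cytokinesis syntaxin KN (SYP111 in the table) at 23.4 ± 1.35. The other mitotic genes, the kinases CDKB1;1, CDKB2;1 and AUR1, had 4.06 ± 0.205, 14.0 ± 0.410 and 5.67 ± 0.126 FPKM. The median of the H3.1 genes was 36.5 and that of the H3.3 genes 276 FPKM, beside 3.75 for all nuclear genes. These lists were compared by level only.

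**Figure D5:**
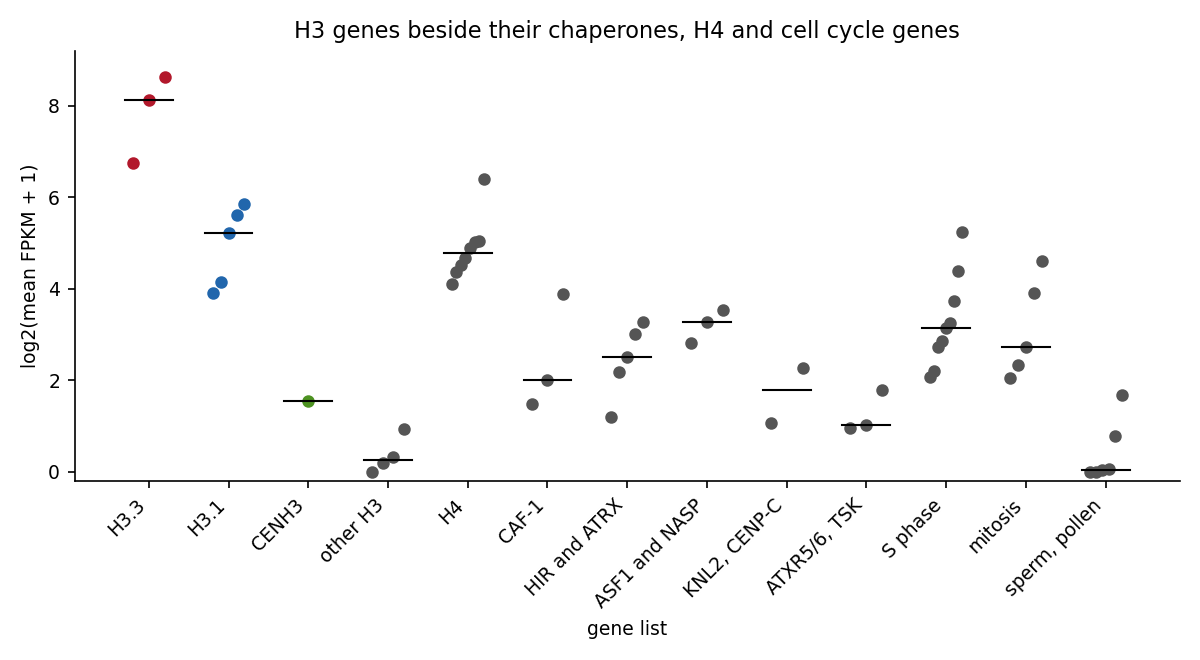
log2(mean FPKM + 1) over 3 libraries of each gene (points) and the median gene (bars) in the H3 classes and in lists of chaperones, H4, S phase, mitosis and sperm or pollen genes. The H3.3 genes lie highest, with a median of 276 FPKM, H3.1 (36.5) and H4 (26.5) follow, and the CAF-1, HIR and ATRX, ASF1 and NASP, S phase and mitosis lists have medians between 2.99 and 8.61.

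Among nuclear protein-coding genes, those nearest in level over the 3 libraries, by the largest difference in log2(FPKM + 1), were AT3G05900, AMY3 and CHUP1 for HTR1 (at most 0.042 apart). For HTR5 they were AT2G27385, AT4G16190 and emb2386 (at most 0.087), and for HTR12 they were AT2G38070, AT3G56320 and TRM34 (at most 0.028). With 3 libraries of 1 group, such likeness is a likeness of level.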

How the data were processed

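Total RNA of 3 wild-type libraries was measured. Per the submitters' processing notes, TopHat2 2.0.9, Cufflinks 2.1.1 and the build TAIR10 were used, with no role given. The deposited files hold 1 value for each of 36172 transcripts, and their headers name no unit. They were read as FPKM, the measure that the authors' tool Cufflinks writes. The sources used here do not give the annotation, the filters or a scaling between libraries.

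Values were summed per locus, and 835 transcripts without one were left out. Of the loci, 26702 matched the RefSeq gene table of TAIR10.1. Coordinates and sequences are from TAIR10.1 alone. Of the 64 list genes, 63 were in the files. Named were all members and forms, every gene of lists with 5 or fewer, the highest and lowest of longer lists, and the 3 nearest genes in level. DUO1, GEX2 and GCS1 were named beyond this rule.

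Tests used limma 3.58.1 in R 4.3.3: an intercept model on log2(FPKM + 1) ratios within libraries, empirical Bayes with trend, genes whose mean reached 1 FPKM, two-sided, threshold 0.05. The pseudocount of 1 shrinks ratios of low genes. The fit was tested on simulated data. Motifs and coding sequences were searched with Python 3.11.15 and Biopython 1.88. Members and lists were chosen with earlier results of these data known. Alternatives were another pseudocount, no filter, each library left out, the main form only, other variances, a window of 500 bases for the motifs (added after the data were seen) and, for the spread between libraries, other scalings.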

Additional observations from a re-analysis of the deposited data

How the results depend on the processing

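No paired analysis was possible because there is 1 group; every ratio was taken within a library. All 183 values recomputed under the alternatives met the rule for no change set for their kind. Differences kept their direction and their side of the threshold, and spreads their side of the limit of 1. Levels, shares of forms and the ratio of sums had to stay within 1 SD. Leaving out 1 of 3 libraries cannot break that rule, so it is no check of them. Counts were allowed a small change, such as that from 8 to 9. The count of members below HTR5 was 8 under each alternative except no filter on low values, where it was 9 because HTR10, listed at 0, entered. The count of H3.1 genes that differed from HTR1 was 4 throughout. The ratio of summed H3.3 to H3.1 ranged from 4.41 to 4.62 with a library left out and was 4.402 from the main form of each gene. Without replicate 2, HTR2 differed from HTR1 by -0.20 (limma adjusted p = 0.0356), the smallest value of this difference. The difference of HTR12 from HTR5 was -7.61 with a pseudocount of 0.1. Depth limits HTR12 and its forms most, and no level can be given for HTR10.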

Other observations

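The genes with the octamer CGCGGATC in the 250 bases before their start were looked at after the H3 result was seen. Of these 37 genes, 4 were members, 2 were H4 genes (AT1G07660 and AT5G59690) and 3 carry symbols of H2A genes: HTA10, HTA13 and HTA6, at 51.3, 17.9 and 40.8 FPKM. The median of all 37 was 10.1 FPKM, beside 3.92 for the 26692 genes with such a window that are in the files. The 37 include the histone genes named here, so this median does not describe the other genes with the octamer. Histone genes outside the lists and without such H2A symbols were not looked for among the 37. Among those others, FAR6 and ISU3 were listed at 0 in all libraries. The 2 H4 genes with the octamer were the lowest and the highest of the 8, at 16.1 and 83.4 FPKM. None of the 9 S phase genes held it. ACT2, an actin gene, held it too, at 362 FPKM.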
